A study of Mus musculus with 8 samples.

Results

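Epididymal secreted protein genes were taken as every exon feature whose symbol begins with Defb and a digit, which gave 34 genes including the pseudogene Defb44-ps, and 26 further genes listed by name. All 60 genes were found among 45090 features in the table, of which 19223 were mRNA exon features. The values are counts of small RNA sequences assigned to exons and summed per symbol, so they measure fragments of these transcripts and not whole mRNAs. The 8 libraries hold small RNA of mouse sperm, 4 from control samples and 4 from samples labelled as treated with ethanol, in a series on the cessation of alcohol. The comparison asks which sperm RNAs differ between the groups. RNA was extracted with Trizol and the libraries were made with Qiaseq reagents, per the labels. Strain, age, ethanol dose and duration, the time since the last exposure and the region from which sperm were collected are not given in the sources used here. No label ties a sample to its own animal, and a p-value here covers the spread among the deposited libraries, which could be technical.

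Sperm that leave the testis cannot yet fertilise an egg and mature while they pass through the epididymis, a long coiled duct divided into initial segment, caput, corpus and cauda. The epithelium of each region secretes its own set of proteins into the lumen, largely under the control of androgens, and many of these proteins attach to the sperm surface. They include beta-defensins, which are small cationic antimicrobial peptides folded by disulfide bonds, cysteine-rich secretory proteins, lipocalins that carry small hydrophobic molecules, ribonuclease-like proteins, and inhibitors of proteases from the Wfdc, Spink and cystatin families. The genes are transcribed mainly in the epithelium, except Spink2, a testis gene, and Clu, which is active in many tissues.

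Most counts of these genes lay in a few transcripts, and they were higher in ethanol sperm. Of the 60 genes 12, among them 5 defensins, passed the filter on low counts, and 10 of the 12 rose (edgeR's quasi-likelihood test over 13515 features, with the Benjamini-Hochberg adjusted p under 0.05). None fell, and Clu and Defb42 did not pass the test. A gene can pass the filter through its ethanol libraries alone, so these counts describe the 12 genes and not all 60. In the same fit 23.8% of 6545 mRNA exon features and 11.9% of all features tested were called higher, and 0.153% and 1.75% were called lower. The median log2 fold change of the 12 genes was 3.84, with a range of 1.47 to 5.49, against 0.88 for mRNA exon features and -0.01 for all features. The rising genes were Crisp1, Spink8, Adam7, Ces5a, Wfdc10, Rnase12, Defb2, Defb11, Defb28 and Defb43. The size of the difference rested largely on ethanol replicate 2: without it 5 genes rose, Crisp1, Spink8, Rnase12, Defb42 and Defb43, while 14.0% of mRNA exon features were called higher. The median log2 fold change of the 14 genes tested without that library was 1.55, against 0.50 for mRNA exon features.

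Levels are given as CPM, which divide the counts by a library size that edgeR's TMM factors adjust over all features. Library totals ran from 3481865 to 6975180 counts, with ethanol replicate 2 the shallowest. mRNA exons took 5.08% to 5.81% of the counts in control libraries. They took 8.69%, 29.3%, 6.94% and 9.73% in ethanol replicates 1 to 4, so every ethanol library lay above every control and ethanol replicate 2 stood apart. A log2 fold change against all features is therefore read beside the median of 0.88 for mRNA exon features. With mRNA exons alone in the fit, which compares exons with each other, 0 of 14 genes tested passed in edgeR's quasi-likelihood test (11 at an unadjusted p under 0.05), as did 0% of 6965 exon features. The median log2 fold change of the 14 genes there was 2.49, against 0.02 for exon features. With exons alone and ethanol replicate 2 left out, a fit added after seeing the data, 1 of 12 genes rose, Defb43, while 2.76% of exon features were called higher. The 10 calls also ended without any 1 of the 4 control libraries, where 12 or 13 genes had an unadjusted p under 0.05, and without ethanol replicate 3 they went to 5. Defb43 was the only one of the 60 genes called in each of the fits without ethanol replicate 2, with ethanol replicates 3 and 4 alone, and with exons alone without ethanol replicate 2.

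**Figure D1:**
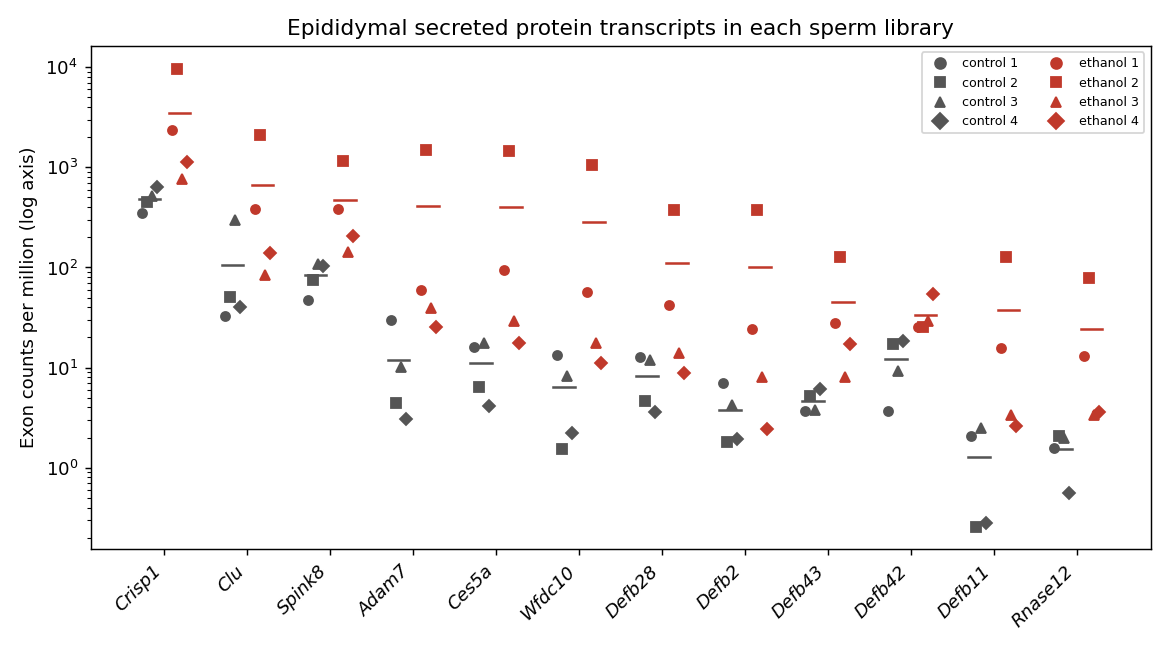
Exon CPM (log axis) of the 12 genes that passed the low-count filter, in each of 4 control (grey) and 4 ethanol (red) sperm libraries; marker shapes give the replicate and horizontal lines the group means. Ethanol replicate 2 (square) is the highest point for every gene except Defb42.

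Crisp1 encodes the cysteine-rich secretory protein 1, an abundant product of the distal epididymis that binds to sperm and takes part in gamete fusion. It held 51.0% to 76.5% of the counts of the 60 genes in every library. Its transcript is annotated on the minus strand of chromosome 17 at chr17:40293758-40319207 (GRCm38, GENCODE M21). Its CPM were 347, 447, 522 and 635 in control replicates 1 to 4, and 2374, 9631, 770 and 1138 in ethanol replicates 1 to 4. The groups did not overlap, but ethanol replicate 3 lay just above the highest control while ethanol replicate 2 was several-fold above every other library. Crisp1 rose from 488 ± 122 to 3478 ± 4159 CPM (SD, n = 4 each), with a log2 fold change of 2.83 ± 0.71 (SE, edgeR adjusted p = 0.0292). Without ethanol replicate 2 the ethanol mean was 1427 ± 840 CPM and Crisp1 still rose, by 1.48 ± 0.42 (edgeR adjusted p = 0.0274). With exons alone the log2 fold change was 1.68 ± 0.72 (edgeR adjusted p = 0.146).

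Spink8 encodes a serine protease inhibitor of the Kazal type and is known from the caput. It had 47.9, 75.8, 109 and 104 CPM in the controls and 382, 1160, 141 and 208 CPM in the ethanol libraries. As with Crisp1, all 4 ethanol libraries lay above every control, with replicates 3 and 4 closest to them. Spink8 rose by 2.49 ± 0.63 (edgeR adjusted p = 0.0292), and by 1.46 ± 0.40 without ethanol replicate 2 (edgeR adjusted p = 0.0212). The gene overlaps the gene model Gm51691, so some counts could belong to that locus. Per kilobase of annotated transcript, Crisp1 had the highest mean level of the 60 genes in both groups, with 344 CPM per kilobase in control and 2456 in ethanol sperm. Spink8 was next among control libraries with 110 CPM per kilobase, followed by Clu with 58.5. In ethanol sperm Wfdc10 and Spink8 followed, with 624 and 616 CPM per kilobase. The place of Wfdc10 rested on ethanol replicate 2, which held 90.3% of its ethanol counts. Without that library the ethanol means, not divided by length, were 28.5 CPM for Wfdc10 and 244 CPM for Spink8.

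Clu encodes clusterin, an extracellular chaperone secreted by the caput epithelium and by Sertoli cells, among other sources. Its CPM were 32.5, 51.2, 300 and 40.3 in control replicates 1 to 4. In ethanol replicates 1 to 4 they were 383, 2086, 83.4 and 138. Control replicate 3 lay above ethanol replicates 3 and 4, so the groups overlapped, and the difference did not pass (log2 fold change 2.67 ± 1.02, edgeR adjusted p = 0.0925). Without ethanol replicate 2 it was 0.82 ± 1.01 (edgeR adjusted p = 0.657).

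Adam7, Ces5a and Wfdc10 had low levels in control sperm and very high levels in ethanol replicate 2. Adam7 encodes a membrane protein of the disintegrin and metalloprotease family that is made in the proximal epididymis and passed on to sperm. It had 29.8, 4.40, 10.2 and 3.06 CPM in the controls and 59.04, 1502, 39.04 and 25.4 CPM in the ethanol libraries. Control replicate 1 lay above ethanol replicate 4, and ethanol replicate 2 held 90.4% of the ethanol counts. Ces5a encodes a carboxylesterase released into epididymal fluid. It had 16.0, 6.46, 17.7 and 4.17 CPM in control and 94.7, 1472, 29.2 and 17.6 CPM in ethanol sperm. Here ethanol replicate 4 lay just below control replicate 3. Wfdc10, a member of the whey acidic protein family of protease inhibitors, had 13.3, 1.55, 8.24 and 2.23 CPM in control and 56.7, 1061, 17.5 and 11.2 CPM in ethanol sperm. Ethanol replicate 4 again lay within the control range. The 3 genes rose, by 5.09 ± 1.44 for Adam7, 5.18 ± 1.38 for Ces5a and 5.49 ± 1.52 for Wfdc10 (edgeR adjusted p = 0.0430, 0.0359 and 0.0404). Without ethanol replicate 2 the log2 fold changes were 1.71, 1.99 and 2.08 and none of the 3 passed (edgeR adjusted p = 0.221, 0.137 and 0.213). Wfdc10 overlaps Wfdc9 in the annotation, and the counting rule is not given, so their counts may not be separable.

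Of the ribonuclease-like genes only Rnase12 passed the low-count filter. It encodes a protein of the ribonuclease A family that is expressed in the epididymis. Counts were few in control sperm, at 1.57, 2.07, 2.0 and 0.56 CPM, and the ethanol libraries had 13.1, 77.9, 3.39 and 3.63 CPM. All ethanol libraries lay above all controls. The control counts of Rnase12, 6, 8, 8 and 2, were under the filter's minimum of 10. The gene thus passed the filter through its ethanol libraries alone, and that order follows largely from the filter. Rnase12 rose by 3.94 ± 1.0 (edgeR adjusted p = 0.0323), or 2.03 ± 0.49 without ethanol replicate 2 (edgeR adjusted p = 0.0126). Rnase10, which is needed for the attachment of maturing sperm and is known from the proximal caput, was not tested in the main fit. It had 4, 2, 4 and 2 counts in control and 13, 11, 22 and 14 counts in ethanol sperm, or 0.517 to 1.05 CPM and 1.91, 2.31, 4.15 and 2.42 CPM. The groups did not overlap on either scale, and ethanol replicate 2 was not the highest ethanol library. With no filter on low counts Rnase10 rose by 1.79 (edgeR adjusted p = 0.0397), where 15.1% of exon features were called higher.

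The defensins with the most counts included 4 similar genes in a cluster on chromosome 8. Their coding sequences, from GENCODE M21 transcripts on GRCm38, are shown because the start of each is nearly the same in all 4, so fragments of that stretch cannot be told apart. The capitals mark the codons of cysteine, the residue whose disulfide bonds hold the defensin fold. Defb2 lies at chr8:21839926-21843482 on the plus strand, Defb10 at chr8:21858901-21862011 on the plus strand, Defb9 at chr8:21881713-21885421 on the minus strand and Defb11 at chr8:21905376-21906412 on the minus strand.
Defb2: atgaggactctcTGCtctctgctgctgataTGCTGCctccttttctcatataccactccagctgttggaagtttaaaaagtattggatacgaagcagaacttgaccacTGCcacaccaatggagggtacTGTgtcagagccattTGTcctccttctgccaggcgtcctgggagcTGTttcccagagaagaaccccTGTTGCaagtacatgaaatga
Defb11: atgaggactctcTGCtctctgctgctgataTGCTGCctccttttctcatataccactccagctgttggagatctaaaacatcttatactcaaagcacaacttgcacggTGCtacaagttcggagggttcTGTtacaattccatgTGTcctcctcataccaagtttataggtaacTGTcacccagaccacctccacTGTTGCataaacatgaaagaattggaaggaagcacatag
Defb10: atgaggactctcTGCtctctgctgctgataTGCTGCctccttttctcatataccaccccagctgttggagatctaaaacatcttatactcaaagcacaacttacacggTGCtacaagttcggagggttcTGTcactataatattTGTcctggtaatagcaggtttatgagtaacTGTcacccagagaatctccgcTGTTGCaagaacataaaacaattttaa
Defb9: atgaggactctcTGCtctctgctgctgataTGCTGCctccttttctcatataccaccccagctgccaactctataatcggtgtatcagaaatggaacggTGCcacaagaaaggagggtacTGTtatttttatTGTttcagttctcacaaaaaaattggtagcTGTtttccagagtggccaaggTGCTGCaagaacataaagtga
Each holds 9 cysteine codons and the coding sequences are 63.9% to 84.2% identical in pairs. The longest run of identical transcript sequence was 102 bases between Defb2 and Defb11, 83 between Defb10 and each of these, and 67 to 75 for the pairs with Defb9. These runs lie in the first exon, which is 88 bases long in Defb9 and Defb10 and 94 in Defb2 and Defb11, or reach only a few bases past it. The second exon carries the rest of each sequence and most of the differences. Only the longest run of each pair was located. The sequences of Defb10 and Defb11 above also share shorter stretches in the second exon, where fragments cannot be told apart either.

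Defb2 had 7.07, 1.81, 4.24 and 1.95 CPM in control and 24.4, 372, 8.11 and 2.42 CPM in ethanol sperm. Only ethanol replicates 1, 2 and 3 lay above all controls. The gene rose by 4.74 ± 1.41 (edgeR adjusted p = 0.0487) but not without ethanol replicate 2 (1.55 ± 0.82, edgeR adjusted p = 0.284). Its second exon held 52 of 58 control counts and 1792 of 1993 ethanol counts, so the difference was carried by sequence outside the shared first exon. Defb11 had 2.09, 0.26, 2.50 and 0.28 CPM in control and 15.7, 127, 3.39 and 2.59 CPM in ethanol sperm. The groups did not overlap, although ethanol replicate 4 was only slightly above control replicate 3. Defb11 rose by 4.81 ± 1.32 (edgeR adjusted p = 0.0400), or 2.39 ± 0.87 without ethanol replicate 2, where it did not pass (edgeR adjusted p = 0.124). Its second exon had 14 control and 541 ethanol counts, part of which may lie in stretches it shares with Defb10.

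Defb9 and Defb10 did not pass the low-count filter. Defb9 had 8, 2, 1 and 2 counts in control and 45, 299, 13 and 5 counts in ethanol sperm, with 9 control and 232 ethanol counts in its second exon. Defb10 had 3, 0, 1 and 1 counts in control and 20, 167, 6 and 3 counts in ethanol sperm. Of these its second exon held 0 control and 17 ethanol counts, and its first exon, shared with Defb2 and Defb11, held 5 and 179. The counts of Defb10 are therefore almost all in sequence that its neighbours also carry.

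Defb43, a defensin gene on chromosome 14, is shown for comparison because its call held in the most fits. Its transcript lies on the plus strand at chr14:63011771-63018088 and has only the 6 cysteine codons of the mature peptide.
Defb43: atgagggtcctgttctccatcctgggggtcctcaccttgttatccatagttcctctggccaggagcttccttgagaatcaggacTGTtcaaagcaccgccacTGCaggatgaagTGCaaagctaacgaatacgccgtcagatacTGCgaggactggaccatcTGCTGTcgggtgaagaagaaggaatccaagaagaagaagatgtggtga
No other defensin among the 60 genes shared a run of 20 bases or more with it. It had 3.66, 5.17, 3.74 and 6.12 CPM in control and 27.8, 126, 8.11 and 17.3 CPM in ethanol sperm. Every ethanol library lay above every control, and Defb43 rose by 3.25 ± 0.71 (edgeR adjusted p = 0.0287). The log2 fold change was 1.87 ± 0.35 without ethanol replicate 2 (edgeR adjusted p = 0.00390) and 1.45 with ethanol replicates 3 and 4 alone (edgeR adjusted p = 0.0351). With exons alone and all 8 libraries it was 2.08 ± 0.52 (edgeR adjusted p = 0.0780).

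Defb42, known from the caput, was the one well counted defensin in which ethanol replicate 2 did not stand out. Its CPM were 3.66, 17.1, 9.24 and 18.4 in control and 25.3, 25.5, 29.2 and 54.3 in ethanol sperm, and every ethanol library lay above every control. The log2 fold change was 1.47 ± 0.48, just short of the threshold (edgeR adjusted p = 0.0519), and without ethanol replicate 2 it rose by 1.55 ± 0.41 (edgeR adjusted p = 0.0254). With ethanol replicates 3 and 4 alone it rose by 1.80 (edgeR adjusted p = 0.0351), while 7.66% of exon features were called higher. Defb28, a defensin gene on chromosome 2, had 12.8, 4.65, 12 and 3.62 CPM in control and 42.3, 377, 14.0 and 8.82 CPM in ethanol sperm. Ethanol replicate 4 lay within the control range, and the rise of 3.73 ± 1.10 (edgeR adjusted p = 0.0453) was lost without ethanol replicate 2 (1.30 ± 0.63, edgeR adjusted p = 0.230). In all, every ethanol library lay above every control in 6 of the 12 genes, Crisp1, Spink8, Defb43, Defb42, Defb11 and Rnase12, against 28.7% of mRNA exon features. Rnase12 passed the filter through its ethanol libraries alone, so its place among these follows largely from the filter.

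**Figure D2:**
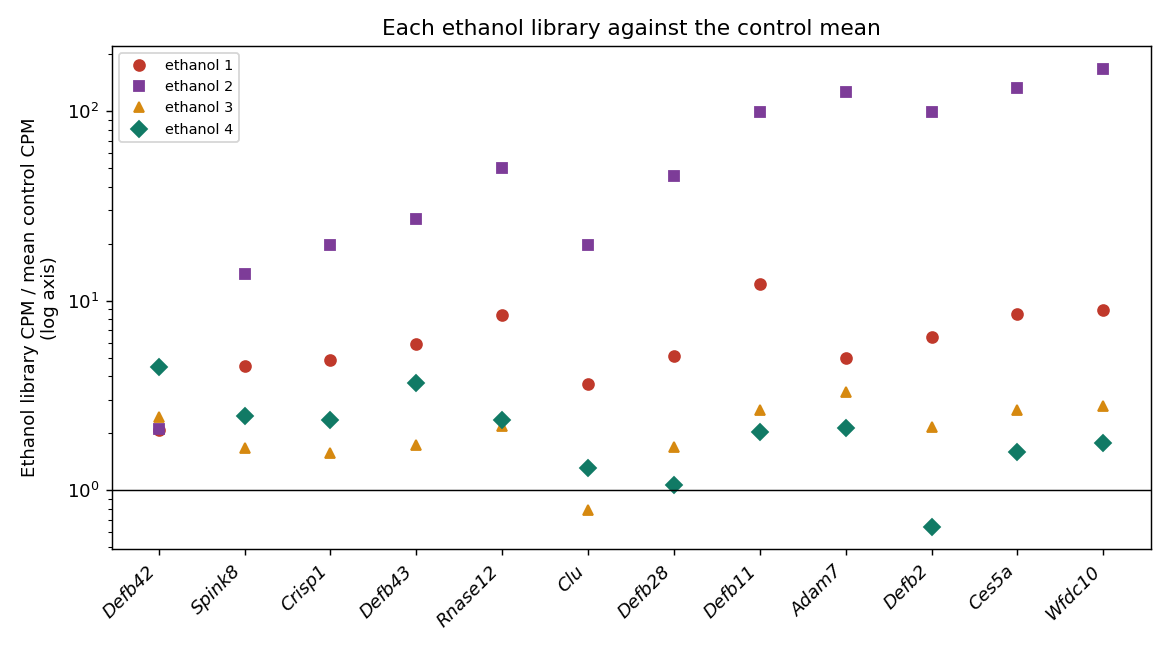
CPM of each ethanol library divided by the mean of the 4 control libraries (log axis), for the 12 genes ordered by the ratio of ethanol replicate 2 to replicate 3. That ratio runs from 0.871 for Defb42 to 60.5 for Wfdc10, and ethanol replicates 3 and 4 lie closer to the control mean (line at 1) than replicates 1 and 2 do for every gene except Defb42.

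The genes differed in how much of their counts came from ethanol replicate 2. The CPM ratio of ethanol replicate 2 to replicate 3 was 60.5 for Wfdc10, 50.3 for Ces5a, 45.9 for Defb2, 38.5 for Adam7 and 37.5 for Defb11. It was 27.0 for Defb28, 25.0 for Clu, 22.9 for Rnase12, 15.5 for Defb43, 12.5 for Crisp1, 8.21 for Spink8 and 0.871 for Defb42. Clu, Crisp1 and Spink8 had the highest mean CPM in control sperm, while Rnase12 and Defb43 averaged only 1.55 and 4.67 CPM there. Each ratio rests on ethanol replicates 2 and 3 alone, with only 18 counts each of Defb11 and Rnase12 in replicate 3. Why the ratios differed was not tested. The sample codes of ethanol replicates 1 and 2 begin with POM and those of replicates 3 and 4 with POEM, and the labels do not say what the forms mean. With ethanol replicates 1 and 2 alone against the controls 15 of 17 genes tested rose, with 33.1% of exon features called higher, and with replicates 3 and 4 alone 2 of 15 rose, Defb42 and Defb43. These pairs were not tested against each other.

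**Figure D3:**
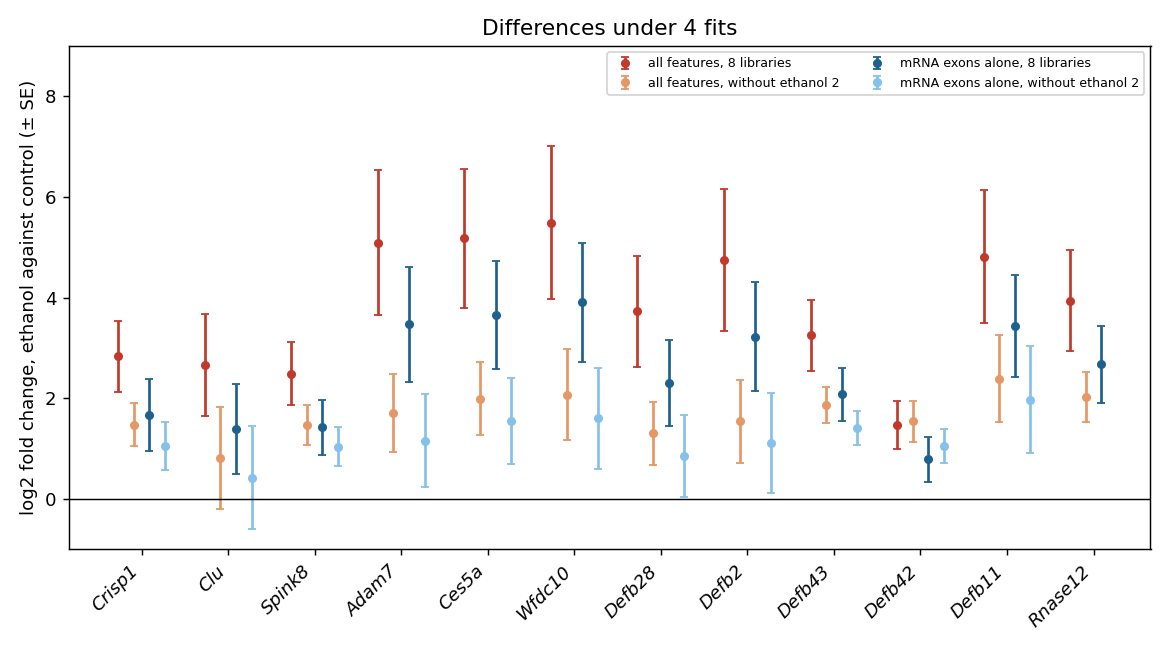
Log2 fold change of ethanol against control with its standard error for the 12 genes under 4 fits: all features or mRNA exons alone, each with all 8 libraries or without ethanol replicate 2. The estimates run from 1.47 to 5.49 in the first fit and from 0.82 to 2.39 without ethanol replicate 2, and Rnase12 was not tested with exons alone and ethanol replicate 2 left out.

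The members that did not pass the filter were 48 of 60, and 28 of all 60 had under 20 counts over the 8 libraries. Those with more counts were of 2 kinds. The first kind was highest in ethanol replicate 2. Defb40 had 1, 0, 4 and 2 counts in control and 24, 225, 5 and 4 counts in ethanol sperm. The lipocalin gene Lcn12 had 2, 0, 0 and 5 counts in control and 22, 144, 9 and 3 counts in ethanol sperm. Defb38, Defb37 and Defb1 had 74, 45 and 39 counts in ethanol replicate 2, which were 86.0%, 91.8% and 79.6% of their ethanol counts. Among the 32 genes with at least 20 counts, 21 were highest in that library.

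The second kind had few counts spread over several libraries. Defb30 had 2, 10, 9 and 5 counts in control and 10, 7, 32 and 25 counts in ethanol sperm, and Defb48 had 1, 3, 4 and 0 counts in control and 12, 3, 6 and 12 in ethanol sperm. The lipocalin genes Lcn8 and Lcn9, of the proximal epididymis, had 8 and 2 counts in all controls and 32 and 18 in all ethanol libraries, of which 1 each came from ethanol replicate 2. Spink2, which encodes an inhibitor of the sperm protease acrosin and is made in the testis, had 10, 4, 11 and 7 counts in control and 10, 7, 17 and 5 counts in ethanol sperm. Its groups overlapped over their whole range. Depth limits what these counts can show, and of the genes that did not pass the filter only Rnase10 and Defb1 were called when no filter was applied (edgeR adjusted p = 0.0397 and 0.00376). Other classical products of the proximal duct had few counts: Lcn5, Lcn6, Lcn10, Cst11, Cst12 and Defb41 had 27, 4, 13, 9, 12 and 1 counts in all 8 libraries. Crisp4, Spag11a, Bsph1 and Bsph2 had 17, 17, 1 and 15.

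By epididymal region of known expression, assigned from general knowledge and not from these data, the genes split unevenly. Of 10 genes of the initial segment and proximal caput 1 was tested and rose, Adam7. The other 9 summed to 3.0 ± 2.85 CPM in control sperm and to 6.32, 4.42, 12.8 and 7.44 CPM in ethanol replicates 1 to 4 (mean 7.75 ± 3.61), so ethanol replicate 2 was the lowest of the ethanol libraries for them. Of 10 caput genes 2 were tested and 1 rose, Spink8, with summed levels of 56.8 to 124 CPM in control and 414, 1228, 176 and 268 CPM in ethanol sperm. Of 3 genes of the distal caput to cauda 1 was tested and rose, Crisp1, while Crisp4 and Defb22 had 17 and 10 counts in all. The other 35 genes given no region had 7 tested, all of which rose, where 23.8% of mRNA exon features were called higher. Of the 7 only Defb43 and Rnase12 were also called without ethanol replicate 2. The 35 genes summed to 24.8 to 64.9 CPM in control and to 296, 3806, 98.8 and 74.9 CPM in ethanol sperm. With so few tested genes per region, region could not be compared with the size of the difference.

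As a share of mRNA exon counts the 60 genes took 0.892%, 0.954%, 1.63% and 1.10% in control replicates 1 to 4 and 4.04%, 8.50%, 1.30% and 1.65% in ethanol replicates 1 to 4. Ethanol replicate 3 lay below control replicate 3, and ethanol replicate 4 lay just above it. The mean share was 1.15% ± 0.338 in control and 3.87% ± 3.32 in ethanol sperm, a ratio of 3.38, or 2.04 without ethanol replicate 2. The high share of control replicate 3 came with its high Clu value.

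Exon counts of Crisp1 were compared along the transcript, since the library holds fragments and their position can differ. The last of 8 exons makes up 53.2% of the annotated transcript. It held 51.3%, 49.2%, 62.2% and 55.9% of Crisp1 counts in the controls, close to its share of length, and 37.9%, 20.7%, 51.6% and 52.6% in ethanol replicates 1 to 4. The groups overlapped, with ethanol replicates 1 and 2 below all controls (two-sided exact permutation p = 0.171). Exon 7 held 3.63% to 5.15% in control and 8.09%, 10.7%, 5.61% and 5.35% in ethanol sperm. These groups did not overlap, which gives the smallest p that 70 assignments allow (exact permutation p = 0.0286), and adjusted over the 13 exon shares of Crisp1 and Spink8 it was 0.186. Ratios of mean CPM differed between exons, from 3.60 in exon 8 and 4.11 in exon 1 to 16.1 in exon 4. Without ethanol replicate 2 the spread was narrower, from 2.34 in exon 8 and 2.72 in exon 1 to 4.55 in exon 7, with 3.62 in exon 4. In Spink8 the last exon went from 45.4%, 42.0%, 58.3% and 50.3% in the controls to 38.4%, 29.2%, 47.8% and 48.3% in the ethanol libraries, and the groups overlapped (exact permutation p = 0.229). Exon 1 of Spink8 held 12.2% to 19.5% in control and 20.8% to 23.1% in ethanol sperm, with no overlap (exact permutation p = 0.0286, adjusted 0.186).

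**Figure D4:**
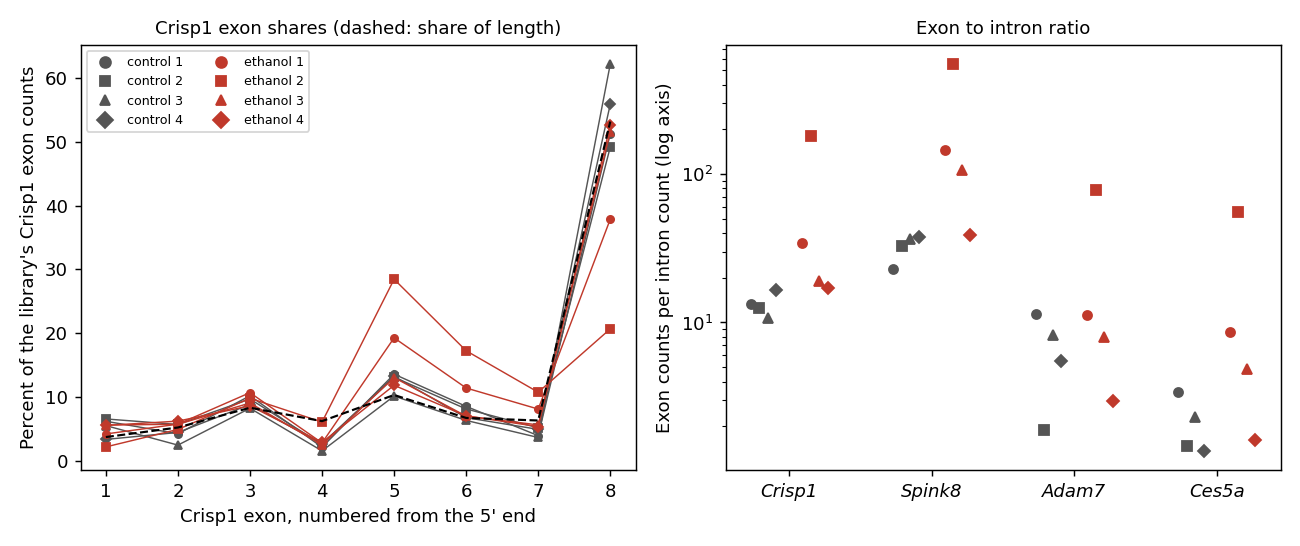
Left, percent of each library's Crisp1 exon counts in exons 1 to 8 from the 5′ end, with the share of transcript length dashed; exon 8 falls to 20.7% in ethanol replicate 2 against 49.2% to 62.2% in controls. Right, exon counts per intron count (log axis) for Crisp1, Spink8, Adam7 and Ces5a in each library, with control in grey and ethanol in red.

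Introns of the same genes were counted as separate features. Of 52 genes with intron features 6 were tested and 1 rose, Adam7 (2.47 ± 0.55, edgeR adjusted p = 0.0287), while 0.271% of all 5159 introns were called higher and 1.88% lower. The median log2 fold change of the 6 was 0.61, against -0.38 for all introns. Crisp1 introns had 26.2, 35.9, 48.7 and 38.4 CPM in control and 68.7, 53.7, 40.6 and 66.6 CPM in ethanol sperm. Ethanol replicate 2 did not stand apart there, and the log2 fold change of 0.62 ± 0.37 did not pass (edgeR adjusted p = 0.247). Per intron count Crisp1 had 13.3, 12.4, 10.7 and 16.5 exon counts in control and 34.5, 179, 19.0 and 17.1 in ethanol sperm. For Spink8 these were 22.9, 32.6, 36.3 and 37.4 in control and 144, 551, 107 and 38.8 in ethanol sperm. Neither pair of groups overlapped, the smallest p that the design allows (exact permutation p = 0.0286 each, 0.0571 adjusted over 4 genes). No share over all genes stands beside this, since the ratio was not computed for them. In the main fit mRNA exon features had a median log2 fold change of 0.88, against -0.38 for introns. The Spink8 ratios rest on 7 to 31 intron counts per library. The ratios of Ces5a and Adam7 overlapped between groups (exact permutation p = 0.0857 and 0.429).

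Promoters, the 250 bases before each transcription start in RefSeq on GRCm38.p6, were searched for the half-site of the androgen receptor, AGAACA or TGTTCT on the other strand, since many of these genes depend on androgens. The 2 spellings are reverse complements and so cover both strands, and the search did not allow mismatches. Of 60 genes 40 had a RefSeq promoter, with 43 promoters in all. The half-site was in 20 of the 43 (46.5%), against 5284 of 32851 promoters of the same length (16.1%). The 43 are not independent. The windows of Rnase10 overlap and hold the same TGTTCT, 42 and 220 bases before their starts, so it was counted more than once. Windows of Spink2, which had no match, overlap too. The promoters compared were not matched for base composition or tissue of expression, and the difference was not tested. No data here measure binding, and a match is a description of the sequence alone. The promoters of Ces5a (chr8:93535841-93536090, minus strand), Defb43 (chr14:63011521-63011770, plus strand) and Crisp1 (chr17:40319208-40319457, minus strand) are shown because these genes rose and differ in whether the half-site, in capitals, is present.
Ces5a promoter: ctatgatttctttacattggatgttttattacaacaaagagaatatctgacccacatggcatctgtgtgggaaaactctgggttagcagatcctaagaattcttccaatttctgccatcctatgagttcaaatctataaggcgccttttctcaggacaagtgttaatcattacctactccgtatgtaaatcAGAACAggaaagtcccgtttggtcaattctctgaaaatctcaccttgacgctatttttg
Defb43 promoter: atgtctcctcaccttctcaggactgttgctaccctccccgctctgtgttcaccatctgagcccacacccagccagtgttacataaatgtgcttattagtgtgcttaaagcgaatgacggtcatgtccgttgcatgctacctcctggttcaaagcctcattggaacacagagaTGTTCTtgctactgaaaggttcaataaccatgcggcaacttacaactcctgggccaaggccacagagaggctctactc
Crisp1 promoter: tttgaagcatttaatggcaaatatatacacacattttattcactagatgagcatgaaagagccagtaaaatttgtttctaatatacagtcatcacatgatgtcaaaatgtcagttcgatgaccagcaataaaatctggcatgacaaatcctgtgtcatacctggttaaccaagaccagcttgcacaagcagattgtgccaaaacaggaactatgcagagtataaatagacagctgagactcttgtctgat
The half-site lies 59 bases before the start in Ces5a and 78 bases before it in Defb43, and 209 bases before it in Defb11. Of the other rising genes with a promoter, Wfdc10, Rnase12 and Defb28 had no match, as did Crisp1.

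Other genes of the epididymis and markers of other cells were set beside these values. Of 26 other secreted epididymal genes 24 were in the table and 10 were tested. Of these 7 rose and 0 fell, where 23.8% of mRNA exon features were called higher. The median log2 fold change was 2.59, against 0.88 for mRNA exon features. The 7 were Wfdc16 (4.38 ± 1.0) and Wfdc15b (4.34 ± 1.03), of the protease inhibitor family of Wfdc10, Npc2 (2.56 ± 0.63), a cholesterol carrier of epididymal fluid, and Serpina1f, Qsox1, Wfdc8 and Ptgds. The edgeR adjusted p was 0.0287 for both Wfdc genes and 0.0288 for Npc2. Summed levels of the list were 180 to 294 CPM in control and 387 to 5348 CPM in ethanol sperm. Without ethanol replicate 2, 6 of the 10 rose, where 14.0% of mRNA exon features were called higher.

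Markers of the epididymal epithelium that are not secreted moved the same way. Of 13 such genes 7 were tested, 5 rose and 0 fell, both with and without ethanol replicate 2. In these 2 fits 23.8% and 14.0% of mRNA exon features were called higher. The keratin genes Krt8 and Krt18 rose by 2.45 ± 0.57 and 2.67 ± 0.62, and the adhesion gene Epcam by 2.21 ± 0.55 (edgeR adjusted p = 0.0287, 0.0287 and 0.0292). The list summed to 39.5 to 93.6 CPM in control and 110 to 617 CPM in ethanol sperm, and 2 of its 13 genes were at 0 in at least 2 of the 4 control libraries. The part of these epithelial transcripts in the rise of the secreted protein genes was not tested. In bulk RNA more cells or cell fragments of a type and more RNA per cell cannot be told apart.

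Sperm and spermatid markers, which check the labelled tissue, were present in every library. All 12 were tested and none passed the test (edgeR adjusted p 0.126 to 0.747). Their sum was 632 to 798 CPM in control and 243 to 681 CPM in ethanol sperm, lowest in ethanol replicate 2, and the median log2 fold change was -0.53. Smcp, a mitochondrial capsule protein of sperm, had 208 ± 18.5 and 109 ± 33.9 CPM, and Odf1, of the sperm tail, 139 ± 20.4 and 95.6 ± 38.7 CPM. Of 4 tested red blood cell markers 2 fell, where 0.153% of mRNA exon features and 1.75% of all features were called lower. These were Hba-a1 and Hba-a2, with log2 fold changes of -2.02 and -2.01 (edgeR adjusted p = 0.0287 and 0.0292). The 5 genes of that list summed to 18.6 to 37.5 CPM in control and 2.07 to 19.7 CPM in ethanol sperm. Of 7 white blood cell markers 2 were tested and 1 rose, where 23.8% of mRNA exon features were called higher. It was Cd52 (3.67 ± 0.79, edgeR adjusted p = 0.0287), a surface glycoprotein that epididymal epithelium also makes in quantity. Csf1r had a log2 fold change of -0.50. That list summed to 60.2 to 93.7 CPM in control and 179 to 2702 CPM in ethanol sperm. Seminal vesicle markers summed to 0 to 2.09 CPM in control and to 5.58, 64.8, 0.754 and 1.90 CPM in ethanol replicates 1 to 4. Svs1 had 57.9 CPM in ethanol replicate 2, while in ethanol replicate 1 Svs2 had 2.79 CPM and Svs1 2.35 CPM. None of the 7 seminal vesicle markers was tested, and 6 of them were at 0 in at least 2 controls. Of 4 smooth muscle markers, all tested, none passed, with sums of 20.7 to 115 CPM in control and 15.4 to 46.5 CPM in ethanol sperm; Myh11 and Acta2, the most abundant, had log2 fold changes of -0.98 and -0.27.

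**Figure D5:**
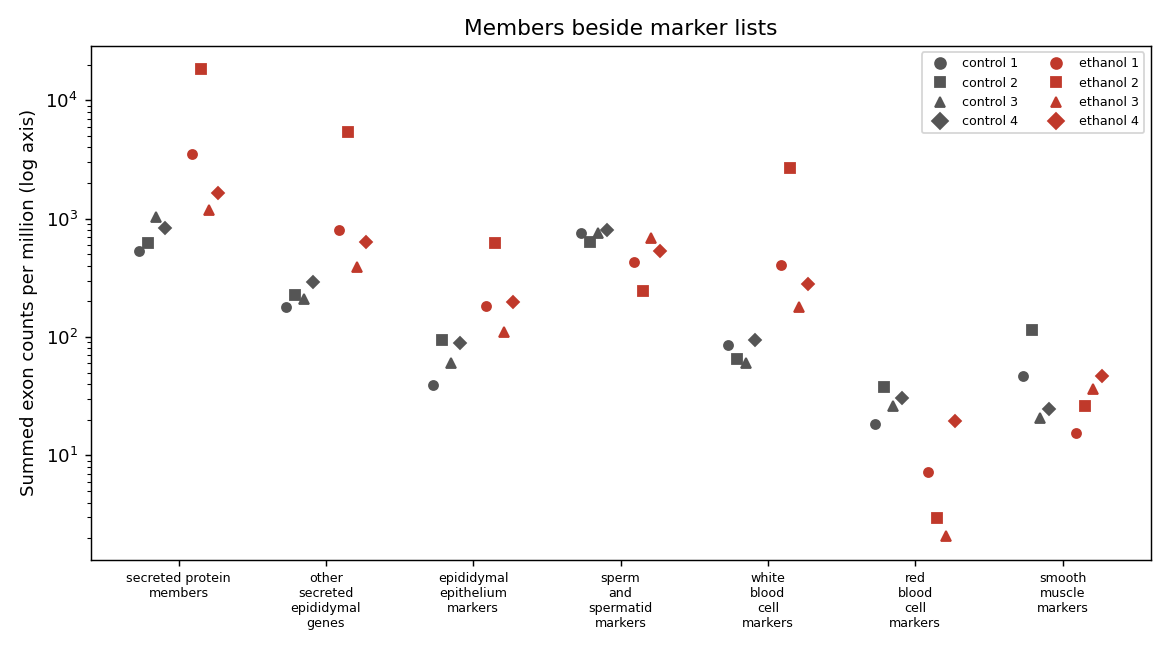
Summed CPM (log axis) of the 60 genes and of 6 marker lists in each library, with control in grey and ethanol in red. The secreted protein genes, the other secreted epididymal genes, the epithelium markers and the white blood cell list (mostly Cd52) are highest in ethanol replicate 2, where sperm and spermatid markers are lowest at 243 CPM.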

How the data were processed

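For 8 sperm libraries the authors deposited 1 table of raw counts in whole numbers, with a column for each library, and it records no normalization. The aligner, genome build, counting rule and use of molecular identifiers are not given in the sources used here. Its 1078961 rows were summed per symbol and class into 45090 features. Samples were grouped by their titles.

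All features were fitted with edgeR 4.0.16 in R 4.3.3 (TMM, filterByExpr by group with minimum count 10, robust quasi-likelihood fit, Benjamini-Hochberg threshold 0.05, limma 3.58.1 for voom). The standard error is the absolute log2 fold change over the square root of F. On simulated data for the ethanol against control comparison with 13515 features, 1% of 2-fold and 53% of 4-fold changes were recovered, with 4 false calls among 58. Exon shares and exon to intron ratios were compared by two-sided exact permutation tests over 70 assignments (smallest p 0.0286). Exon rows of minus-strand genes were found numbered by ascending position (99.0% of 8476 informative rows). Within groups, library pairs gave chi-square values of 11.7 to 189 per degree of freedom, so all were kept as replicates. Transcripts were taken from GENCODE M21 and promoters from RefSeq (GRCm38.p6). Other steps ran in Python 3.11.15 with scipy 1.17.1, pandas 2.3.3, numpy 2.4.6 and matplotlib 3.10.9.

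The members, regions and gene lists were chosen with earlier results of these data known. Named genes are the members past the threshold and the 12 with the highest mean CPM, and in each other list up to 3 past the threshold or the 2 most abundant. Other named members were chosen after their values were seen. Alternatives were other scalings, DESeq2 1.42.0, limma-voom, no filter, the replicate number as a block, single libraries or pairs left out, exons alone, and the largest row per symbol.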

Additional observations from a re-analysis of the deposited data

Results flagged for a closer look

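Among the 12 most abundant genes, 24 groups of 4 libraries were checked for a library far from the others, by its gap to the nearest library divided by the range of the group. The gap was above Dixon's critical value in 11 groups. Chance flags about 1 in 20 independent groups, but that rate does not apply directly here: the genes share the same 8 libraries and were ranked by a mean over all of them, which ethanol replicate 2 raises. In the ethanol group 9 of the 11 were due to the high value of ethanol replicate 2: Adam7 (gap over range 0.977, 1502 CPM), Wfdc10 (0.957, 1061 CPM), Ces5a (0.947, 1472 CPM), Defb2 (0.941, 372 CPM), Defb28 (0.909, 377 CPM), Defb11 (0.895, 127 CPM), Rnase12 (0.870, 77.9 CPM), Clu (0.850, 2086 CPM) and Defb43 (0.833, 126 CPM). Defb42 stood apart in ethanol replicate 4 (0.863, 54.3 CPM) and Clu in control replicate 3 (0.930, 300 CPM).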

How the results depend on the processing

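The 10 members called of 12 became 11 with library totals, 6 with the DESeq2 Wald test, where 5 members had no adjusted p, and 0 with limma-voom (12 at an unadjusted p under 0.05). With no filter on low counts 8 of 60 were called, where 15.1% of exon features were higher: Crisp1, Spink8, Defb43 and Rnase12 as before, and Clu, Defb42, Rnase10 and Defb1. The calls became 0 with mRNA exons alone or the largest row per symbol (10 at an unadjusted p under 0.05). They became 15 with ethanol replicates 1 and 2 alone and 2 with replicates 3 and 4 alone. Of exon features 0% were called higher with exons alone, and 33.1% and 7.66% with these pairs. Leaving out 1 library gave 0 to 11: 0 without any 1 control, 5 without ethanol replicate 2 (14.0% of exon features higher) or 3. For library totals, DESeq2, limma-voom, the largest row, the replicate block and the other single libraries left out, that share is not given. The counts of members called in those fits, also by region, therefore have no background beside them. Over all features 1842 were called, against 1200 with DESeq2 size factors, 3144 with DESeq2 Wald, 8 with limma-voom, 3451 with no filter, 0 with exons alone, 2 with the largest row, 3317 and 818 with the ethanol pairs, and 3 to 3569 with 1 library left out. Exons alone without ethanol replicate 2, or without 1 and 2, were fits chosen after seeing the data and called 338 and 32 features and 1 and 0 members. In the latter Defb28, Defb2 and Clu reversed (log2 fold change -0.14, -0.10 and -0.53).

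With the replicate number as a block 3294 features and 5 members were called (Crisp1, Spink8, Defb42, Defb43 and Rnase12). Deviations of same-numbered libraries correlated at 0.341, 0.209, -0.127 and -0.0201, so the numbers were not taken to pair the samples.

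By region, limma-voom, exons alone and the largest row left 0 calls in each group. The proximal group, with 1 call, had 0 with DESeq2 Wald, the block or ethanol replicates 3 and 4 alone, and 0 to 2 with 1 library left out. The caput group, with 1 call, had 2 with library totals, DESeq2 Wald, no filter, the block or ethanol replicates 1 and 2 alone, and 0 to 2 with 1 library left out. The distal group, with 1 call, had 0 with ethanol replicates 3 and 4 alone and 0 to 1 with 1 library left out. Genes of no given region, with 7 calls, had 3 with DESeq2 Wald or no filter, 2 with the block, 1 with ethanol replicates 3 and 4 alone and 0 to 7 with 1 library left out. Clu was called with no filter or with ethanol replicates 1 and 2 alone (1 call each, against 0). In the 2 added fits the 3 groups named first had 0 calls and genes of no given region 1 and 0. The ratio of the members' share was 3.38 of exon counts and 12.3 of all counts, or 2.04 and 3.18 without ethanol replicate 2. Where a call changed, the cause was not tested. Adam7 and Defb11 were not tested with the largest row, nor Rnase12 in the added fits. Depth limits the 28 members with under 20 counts.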
